A study of Mus musculus with 48 samples.

Results

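Crabp2, Crabp1, Aldh1a1, Aldh1a2, Cyp26b1 and Rarb, 6 genes that handle retinoic acid in the cell, were followed through the aorta of 3 mouse knockout models of elastic fibre formation. The genes were chosen on measured values of these same arrays: their difference between knockout (KO) and wild type (WT), and their pattern between the ascending (AA) and descending (DA) aorta in WT. Those differences are therefore described here without a test. Each gene was read from the probe set with a single gene symbol and the highest mean. All 6 of the 6 members had 1 such probe set, among 22180 genes of the table, and all 6 were among the 15337 genes tested. A tested gene needed at least 1 group mean at or above 4.94, the median log2 signal of probe sets with a single symbol.

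The data were 48 arrays in 24 groups of 2 arrays. The models lacked Eln (elastin), Efemp2 (fibulin-4) or Lox (lysyl oxidase). Each was compared with WT mice of its own model before birth (E17.5, in embryonic days) and just after it (P1), in AA and DA. Eln and Efemp2 mice were C57BL/6 and Lox mice B6 albino, and the labels give no further allele. Each array held RNA of 8 pooled aortas, and nothing more is said of how separate the pools were, so p-values measure only the spread between these arrays, which may be technical. All values are deposited log2 signals, and a difference of 1 is a 2-fold difference.

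Retinoic acid is made from vitamin A inside cells and acts on genes through nuclear receptors. Aldh1a1 and Aldh1a2 are retinaldehyde dehydrogenases, which carry out the last step of its synthesis, and Aldh1a2 is the main such enzyme of the embryo. Crabp1 and Crabp2 bind it in the cytoplasm, and Crabp2 passes it on to receptors in the nucleus. Cyp26b1 is a cytochrome P450 that breaks it down. Rarb is one of its nuclear receptors and is itself a classical target, through a retinoic acid response element in its promoter. In the developing aorta retinoic acid is known for its part in forming the outflow tract and the arch.

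The response element is a direct repeat of a 6-base core. The repeat was searched in RefSeq promoters of build GRCm38.p6 (250 bases before to 50 after a start site). The core could be AGGTCA or AGTTCA or GGGTCA or GGTTCA, and any 2 cores in the same direction were accepted, with a gap of 1, 2 or 5 bases, on either strand, and overlap with other motifs was not considered. Of 32851 promoters, 193 (0.588%) held such a repeat, and 32 (0.0974%) held one with the gap of 5 bases. Of the members all but Crabp2 had a promoter in the table, which gave 5 members with 6 promoters, and 1 of the 5 held a repeat. That member was Rarb. Its 250 bases upstream of the start site lie at chr14:16575477-16575726 on the minus strand, inside the annotated span of Rarb. They are shown because Rarb is the member whose promoter carries the element, with the 2 cores in capitals:
Rarb: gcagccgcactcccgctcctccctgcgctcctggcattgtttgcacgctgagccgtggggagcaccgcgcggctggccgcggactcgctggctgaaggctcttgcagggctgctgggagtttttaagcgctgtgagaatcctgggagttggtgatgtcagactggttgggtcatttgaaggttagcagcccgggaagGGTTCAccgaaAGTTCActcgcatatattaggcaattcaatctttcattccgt
Of 34 other pathway genes with a promoter, 2 held a repeat, and both are shown for comparison with Rarb, as read 5′ to 3′ on the strand of the gene, with the cores in capitals:
Cyp26a1: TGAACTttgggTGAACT
Bco1: TGACCTtTGACCT
The Cyp26a1 repeat lies in the promoter at chr19:37697558-37697857 on the plus strand and has the same gap of 5 bases as Rarb. The Bco1 repeat lies in the promoter at chr8:117095615-117095914 on the plus strand and has a gap of 1 base. In both, the cores read on the opposite strand. A match is a description of the letters, and no binding was measured. Neither Cyp26a1, another retinoic acid hydroxylase, nor Bco1, which splits beta-carotene, reached the signal needed for testing.

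Some arrays and sets of arrays stood apart. The deletion was visible where it could be read: Eln group means were 10.43 to 11.90 in WT and 4.46 to 5.44 in KO of the Eln model, and Lox means were 9.56 to 11.45 in WT and 7.10 to 8.59 in KO of the Lox model, while the probe annotation used here listed no probe set under the symbol Efemp2. The mean of 6 smooth muscle markers was 8.61 to 10.73 on every array, against array medians of 3.71 to 5.35. No label names sets of arrays, and a set here means only arrays grouped by model and stage. Array medians differed between sets: 3.71 to 3.82 in Lox E17.5, 4.85 to 5.35 in Lox P1 and 4.35 to 4.89 elsewhere. The Lox P1 arrays of KO (4.85 to 5.19) had lower medians than those of WT (5.21 to 5.35). Raised background was judged by each array's median over unnamed probe sets (no gene symbol), within the 16 P1 arrays of Eln and Efemp2. It was assigned to 4 WT arrays: both Eln DA P1 arrays, and replicate 2 of Efemp2 AA P1 and of Efemp2 DA P1. These read 4.35 to 4.37, and the other P1 arrays of Eln and Efemp2 read 3.73 to 4.14. The label is relative to those arrays, since Lox P1 arrays read 4.22 to 4.74 and do not carry it. For these reasons every difference within a single pair is given less the median difference of all tested genes in that pair, which was largest in Eln DA P1 (0.27), Lox AA P1 (-0.20) and Lox DA P1 (-0.17). Means over the pairs of a model are given as fitted, since their medians were -0.09 to 0.06.

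**Figure D1:**
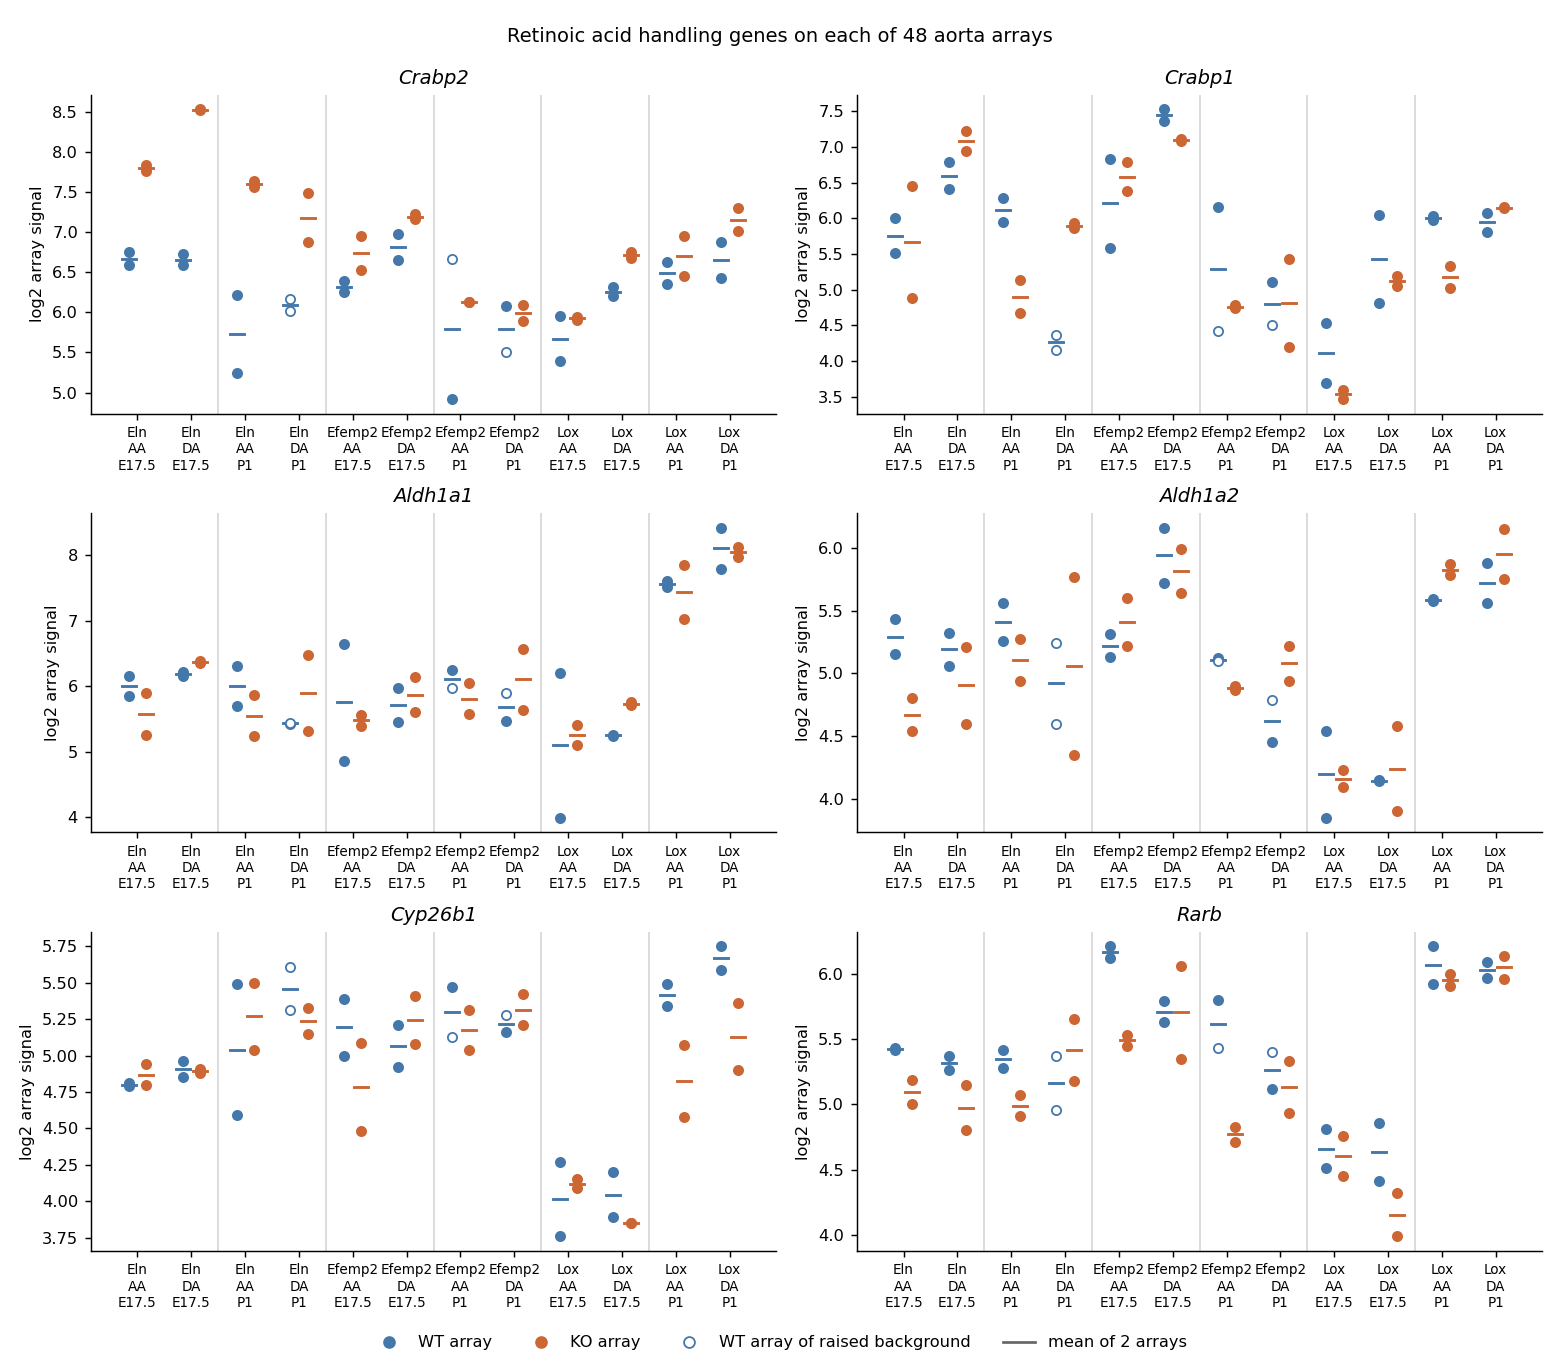
The log2 array signal of the 6 genes on each of the 48 arrays (points, WT blue and KO orange; open points are the WT arrays of raised background; short lines are means of 2 arrays), for each model, location and stage. Crabp2 KO points lie above WT points in every Eln pair, and Lox P1 arrays lie above Lox E17.5 arrays for Aldh1a1, Aldh1a2, Cyp26b1 and Rarb.

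Crabp2 was higher in KO than in WT in every pair, with the largest mean difference in the aorta without elastin. In Eln AA at E17.5 the 2 WT arrays read 6.59 and 6.75 and the 2 KO arrays 7.84 and 7.76. In Eln DA at E17.5 the WT arrays read 6.72 and 6.59 and the KO arrays 8.52 and 8.53, the highest group mean of Crabp2 in the series. The KO arrays of both locations were thus above the WT arrays by more than the spread between arrays. At P1 the WT arrays of Eln AA read 5.24 and 6.21 and the KO arrays 7.63 and 7.56. In Eln DA at P1 the WT arrays, both of raised background, read 6.16 and 6.01 and the KO arrays 6.87 and 7.48. KO and WT arrays did not overlap in 4 of 4 Eln pairs. The share of tested genes with KO above WT without overlap in 4 of 4 Eln pairs was 1.28%, and since the choice of the gene used these pairs, nothing is read from the count.

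Less the median difference, KO exceeded WT at E17.5 by 1.18 ± 0.33 (Eln AA) and 1.85 ± 0.33 (Eln DA), and at P1 by 1.85 ± 0.33 (AA) and 0.83 ± 0.33 (DA) (limma standard errors, 2 arrays against 2). Over the 4 pairs the Eln KO mean was 7.77 against 6.28 in WT, a difference of 1.49 ± 0.17, or 2.81-fold. Without the 4 arrays of raised background, which leaves 3 pairs, the difference was 1.62 ± 0.14. Over all models, and less the median differences, the KO difference in DA less that in AA was -0.02 ± 0.19. That at P1 less that at E17.5 was -0.07 ± 0.19, and neither was beyond its error.

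In the other models Crabp2 was higher in KO by less. In Efemp2 AA at E17.5 the WT arrays read 6.25 and 6.39 and the KO arrays 6.95 and 6.53, and in Efemp2 DA they read 6.65 and 6.98 against 7.16 and 7.22, so KO lay above WT in both (21.2% of tested genes in at least 2 of the 4 Efemp2 pairs). At P1 the Efemp2 groups overlapped: AA read 4.92 and 6.66 in WT and 6.13 on both KO arrays, and DA read 6.08 and 5.51 in WT and 6.09 and 5.89 in KO. One WT array of raised background, replicate 2 of Efemp2 AA P1, gave the 6.66, and its partner gave 4.92, the lowest Crabp2 value of the series. The mean Efemp2 difference was 0.33 ± 0.17, with 0.12 when replicate 1 of the WT AA P1 arrays was left out and 0.55 when replicate 2 was left out. It was 0.48 ± 0.14 without the 4 arrays of raised background.

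In the Lox model, AA at E17.5 read 5.39 and 5.95 in WT and 5.91 and 5.94 in KO, and DA read 6.31 and 6.20 in WT and 6.68 and 6.75 in KO. At P1, AA read 6.35 and 6.63 in WT and 6.95 and 6.45 in KO, and DA read 6.87 and 6.43 in WT and 7.30 and 7.01 in KO. Both DA pairs were free of overlap (10.7% of tested genes in at least 2 of the 4 Lox pairs) and both AA pairs overlapped. The mean Lox difference was 0.36 ± 0.17. Less the median differences, the Eln difference was larger than the Efemp2 one by 1.13 ± 0.24. By the same measure it was larger than the Lox one by 0.98 ± 0.24, and both values are without a test.

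Counted over the series, the KO mean of Crabp2 was above the WT mean in 12 of 12 pairs less the median, and KO was above WT without overlap in 8 of 12. Of all tested genes 0.822% had KO above WT in 12 of 12 pairs less the median, and 1.83% were free of overlap in at least 8 of 12. The pair values ran from 0.10 in Efemp2 DA P1 to 1.85.

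**Figure D2:**
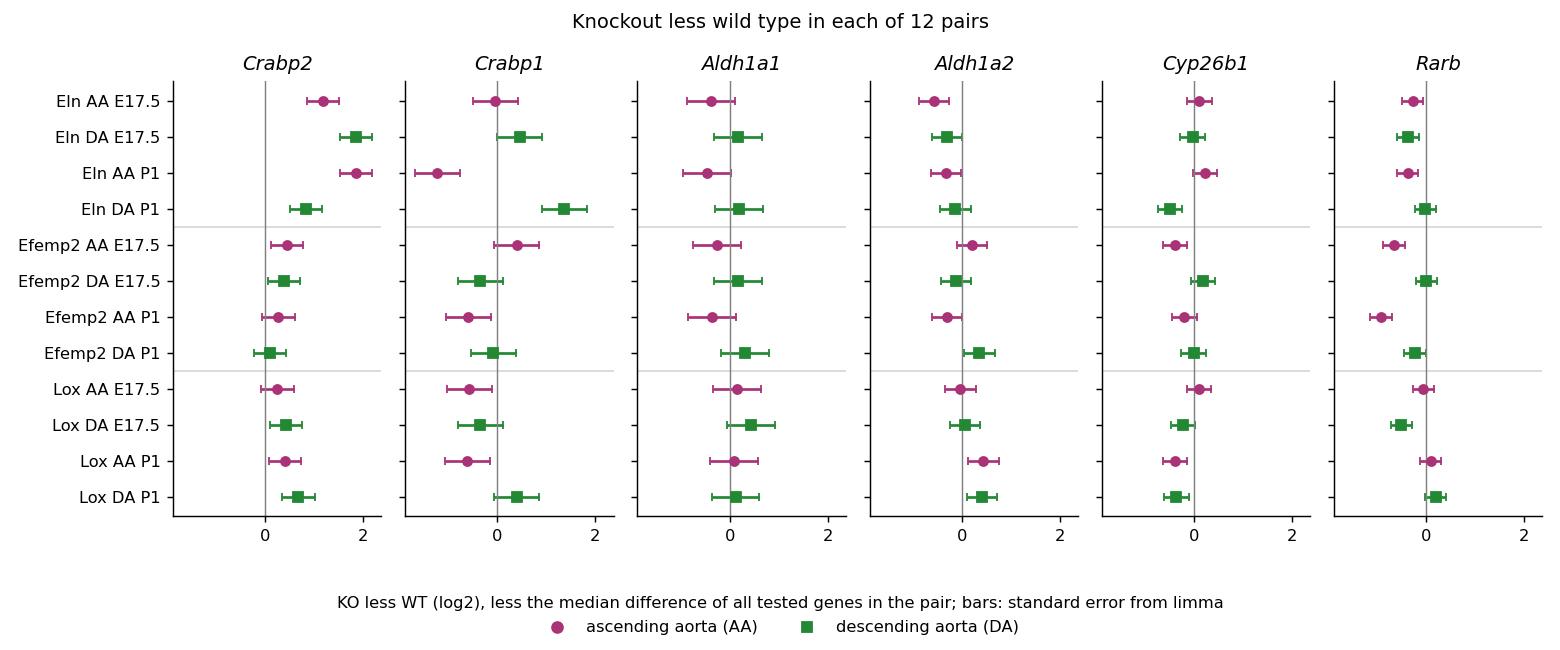
KO less WT (log2, less the median difference of all tested genes in the pair) for the 6 genes in the 12 pairs, with limma standard errors; circles are AA and squares DA. Crabp2 lies to the right of 0 in 12 of 12 pairs, between 0.10 and 1.85, and Rarb lies to the left in 10 of 12.

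Markers of several cell types also differed in the Eln model. Of 6 neuron markers, 5 had a probe set and 4 were tested. Stmn2 (difference 1.31 ± 0.26) and Prph (0.96 ± 0.23) rose in Eln KO, with adjusted p = 0.00165 and 0.0107 by limma with Benjamini-Hochberg adjustment, and both did so in 4 of 4 pairs. The list mean per array was 4.51 to 6.06 in Eln WT and 4.96 to 6.98 in Eln KO, so some arrays of either genotype were near the level of the other. Less the median, the mean of the 4 differed between KO and WT at E17.5 by 1.38 (AA) and 1.30 (DA), and at P1 by 0.28 (AA) and 1.06 (DA). Of 5 tested cartilage markers 3 rose, with list differences of 0.23, 0.51, 0.85 and 0.59 in AA and DA E17.5 and AA and DA P1. Of 6 fibroblast and adventitia markers 3 fell and 1 rose, with list differences of -0.53, -0.07, -0.55 and -0.01 in the same order. Of 6 brown fat markers 2 fell, and of 6 endothelial markers 1 fell. Of 6 smooth muscle markers 1 rose, and 4 were higher at an unadjusted p under 0.05 by limma. The smooth muscle list differences were 0.18, -0.08, 0.60 and 0.14 in the same order. The part of neurons, cartilage, smooth muscle and these other cells in the Crabp2 difference was not tested. In tissue RNA, more cells of a type and more RNA per cell cannot be told apart.

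Crabp1, the paralog of Crabp2, had no such pattern across the models but differed between the 2 ends of the aorta. In WT at E17.5, Eln AA read 5.51 and 6.01 and DA 6.41 and 6.79. Efemp2 AA read 5.59 and 6.83 and DA 7.37 and 7.53, and Lox AA read 3.69 and 4.53 and DA 4.82 and 6.05. DA was above AA without overlap in 3 of 3 of these pairs, which 3.17% of tested genes also showed, and the choice of genes used this pattern. The mean difference at E17.5 was 1.13 ± 0.27.

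At P1 the WT pattern of Crabp1 was not the same. Eln AA read 5.95 and 6.29 and Eln DA 4.16 and 4.37, where both DA arrays were of raised background. Efemp2 AA read 6.16 and 4.42 and DA 5.11 and 4.50, where the second array of each was of raised background. The 4 arrays of raised background thus gave 4.16 to 4.50, and without them Efemp2 had 1 array a side, 6.16 in AA and 5.11 in DA. Lox AA read 5.98 and 6.03 and DA 6.08 and 5.81, with overlap. The DA mean was below the AA mean in 3 of 3 pairs less the median (17.3% of tested genes), and the mean P1 difference was -0.80 ± 0.27 with all arrays. Over both stages DA less AA in WT was 0.17 ± 0.19 with all arrays and 0.46 ± 0.20 without the 4.

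In KO aortas Crabp1 was higher in DA at both stages. At E17.5, Eln KO read 4.89 and 6.45 in AA and 7.22 and 6.95 in DA, Efemp2 KO 6.38 and 6.79 in AA and 7.08 and 7.11 in DA, and Lox KO 3.60 and 3.47 in AA and 5.05 and 5.20 in DA. At P1, Eln KO read 5.14 and 4.67 in AA and 5.87 and 5.93 in DA, and Lox KO 5.03 and 5.34 in AA and 6.14 and 6.16 in DA. Only Efemp2 KO at P1 overlapped, with 4.75 and 4.78 in AA and 5.43 and 4.20 in DA. DA was above AA without overlap in 5 of 6 KO pairs (3.56% of tested genes in at least 5 of 6), and its mean was higher in 6 of 6 less the median (7.04%). The mean KO difference between DA and AA was 0.92 ± 0.19.

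The KO difference of Crabp1 varied between pairs, and a single pair set much of its mean in DA. Less the median, AA read -0.04 and -1.23 in Eln at E17.5 and P1, 0.39 and -0.60 in Efemp2, and -0.58 and -0.62 in Lox (mean -0.45). DA read 0.46 and 1.37 in Eln, -0.35 and -0.09 in Efemp2, and -0.35 and 0.39 in Lox (mean 0.24), each with a standard error of 0.46. The 1.37 of Eln DA P1 rests on the 2 WT arrays of raised background. The mean differences were 0.20 ± 0.23 in Eln, -0.13 ± 0.23 in Efemp2 and -0.37 ± 0.23 in Lox. Without the 4 arrays the Eln mean was -0.27 ± 0.24, so its direction depended on them. The spread of Crabp1 between arrays of a group was 0.51 (pooled SD), against 0.35 for Crabp2.

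Neuron markers also stood higher in WT DA. All 4 of the 4 tested passed the threshold: Stmn2 by 1.30 ± 0.21, Prph by 0.96 ± 0.18, Tubb3 by 1.89 ± 0.35 and Th by 0.87 ± 0.23 (adjusted p = 5.67e-05, 0.000585, 0.000493 and 0.0119, limma). Their mean difference at E17.5 was 1.36 in Eln, 2.71 in Efemp2 and 1.64 in Lox. At P1 it was 0.36, -0.14 and 1.69. The Crabp1 difference of Lox P1 was -0.22 less the median. The part of neurons in the Crabp1 values was not tested.

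**Figure D3:**
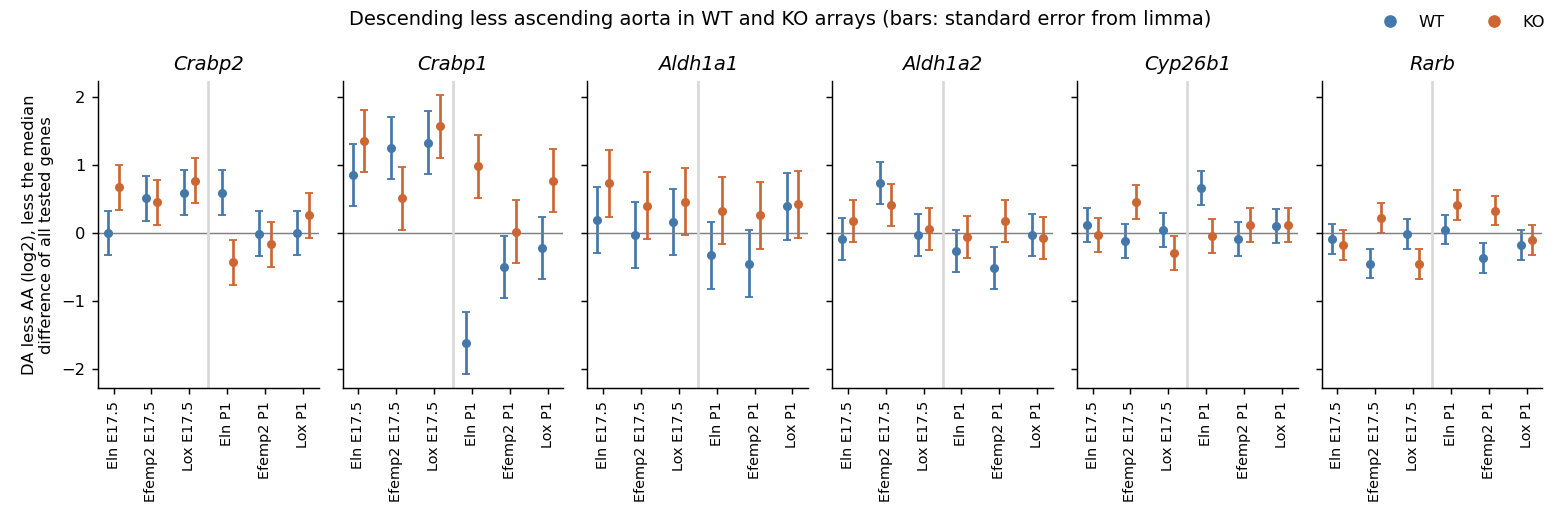
DA less AA (log2, less the median difference of all tested genes) in WT (blue) and KO (orange) arrays for the 6 genes, with limma standard errors, E17.5 pairs on the left and P1 pairs on the right of each panel. Crabp1 is above 0 in 3 of 3 WT pairs at E17.5 and in 6 of 6 KO pairs, and below 0 in the 3 WT pairs at P1.

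Crabp2 had a smaller difference along the aorta in WT. DA was above AA without overlap in 2 of 6 pairs (36.6% of tested genes in at least 2), Efemp2 and Lox at E17.5, by 0.51 ± 0.33 and 0.59 ± 0.33 less the median, while the Eln pair at E17.5 and the 3 pairs at P1 overlapped. Over the 6 pairs the difference was 0.26 ± 0.14. It was 0.12 without replicate 1 of the Efemp2 WT AA P1 arrays, 0.41 without replicate 2, and 0.48 ± 0.12 without the 4 arrays of raised background.

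The synthesis enzymes differed little between KO and WT. Aldh1a1 had a KO mean of 5.85 against 5.90 in Eln, 5.81 against 5.81 in Efemp2 and 6.62 against 6.50 in Lox, each with a standard error of 0.24. Less the median, KO was above WT in 6 of 6 DA pairs (4.96% of tested genes) and in 2 of 6 AA pairs, with means of 0.24 and -0.21. Arrays were free of overlap in 2 of the DA pairs: Eln at E17.5 read 6.21 and 6.15 in WT and 6.38 and 6.36 in KO, and Lox at E17.5 read 5.24 and 5.26 in WT and 5.71 and 5.75 in KO. DA less AA was -0.03 ± 0.20 in WT and 0.49 ± 0.20 in KO, where it was above 0 in 6 of 6 pairs and without overlap in 4 of 6 (9.68% of tested genes in at least 4).

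The spread of Aldh1a1 was wide in some groups. Lox WT AA at E17.5 read 3.99 and 6.20, and Efemp2 WT AA at E17.5 read 6.64 and 4.86. Its highest values were on the Lox P1 arrays, 7.03 to 8.42, where the array medians were also highest. At P1 in WT, DA was below AA without overlap in Eln (5.42 and 5.44 against 5.69 and 6.30) and Efemp2 (5.47 and 5.89 against 6.25 and 5.97), and above it in Lox (8.42 and 7.79 against 7.51 and 7.60). Both Eln DA arrays, and the second Efemp2 array of each location, were of raised background. The median differences of all tested genes in these pairs were -0.23, 0.01 and 0.15. How many tested genes shared this pattern was not counted, and nothing is read from it.

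Aldh1a2 was lower in Eln KO than in WT in 4 of 4 pairs less the median (6.17% of tested genes), from -0.57 ± 0.31 in AA E17.5 to -0.13 ± 0.31 in DA P1. The mean was 4.94 in KO and 5.20 in WT, a difference of -0.27 ± 0.16. That value was -0.09 without replicate 1 of the Eln KO DA P1 arrays and -0.45 without replicate 2, and as deposited the DA P1 pair, with WT arrays of raised background, was at 0.14. Only AA at E17.5 was free of overlap, with 5.15 and 5.43 in WT and 4.54 and 4.80 in KO. In Lox the mean was 5.05 in KO and 4.91 in WT, and in Efemp2 5.30 and 5.22. Less the median differences, the Eln difference was below the Lox difference by 0.55 ± 0.22, untested.

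Mesothelium, which covers the aorta and its surroundings, is a known site of Aldh1a2. The mean of 7 mesothelial and epicardial markers differed between Eln KO and WT at E17.5 by -0.40 (AA) and -0.27 (DA), and at P1 by -0.59 (AA) and 0.31 (DA), with 0 of 7 past the threshold in either direction by limma (0 also at an unadjusted p under 0.05). The list mean was 5.86 to 7.62 in Eln WT arrays and 5.79 to 7.16 in Eln KO arrays. Along the WT aorta Aldh1a2 was higher in DA in Efemp2 at E17.5 (5.72 and 6.16 against 5.13 and 5.31) and lower in DA in Efemp2 at P1 (4.45 and 4.79 against 5.12 and 5.10). The marker list differed by 0.32 and -0.90 in those 2 pairs. Its part in the Aldh1a2 values was not tested.

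The mean of Cyp26b1, the breakdown enzyme, was lower in Lox KO than in WT. At P1 Lox AA read 5.34 and 5.49 in WT and 5.07 and 4.58 in KO, and Lox DA read 5.59 and 5.75 in WT and 4.90 and 5.36 in KO. In DA at E17.5 the WT arrays read 3.89 and 4.20 and the KO arrays 3.85 on both. In AA at E17.5 the groups overlapped, with 3.76 and 4.27 in WT and 4.09 and 4.15 in KO, a difference of 0.10 less the median. KO was below WT without overlap in 3 of 4 Lox pairs, as were 10.9% of tested genes, and nothing is read from the count. The Lox P1 arrays had lower medians in KO, and both KO arrays lay below both WT arrays for 54.6% of tested genes in AA and 44.7% in DA. The mean Lox difference was -0.30 ± 0.12, or -0.22 less the median. In Eln it was 0.02 ± 0.12 and in Efemp2 -0.07 ± 0.12, and 0 of the 8 pairs of these models were free of overlap. WT DA and AA differed by 0.10 ± 0.10. At 3.76 to 4.27, the Lox WT E17.5 AA arrays were below the median signal of the table, as 10 of the 24 group means of Cyp26b1 were.

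Rarb, the receptor, was mostly lower in KO: its mean was below the WT mean in 10 of 12 pairs less the median (5.59% of tested genes in at least 10). The difference was largest in the ascending aorta of the Efemp2 model. There the arrays at E17.5 read 6.21 and 6.12 in WT and 5.45 and 5.53 in KO, and at P1 5.80 and 5.43 in WT and 4.83 and 4.71 in KO. These are differences of -0.66 ± 0.22 and -0.92 ± 0.22 less the median, both without overlap (12.9% of tested genes in at least 2 of the 4 Efemp2 pairs). In Efemp2 DA the groups overlapped, with 5.63 and 5.79 in WT and 6.06 and 5.35 in KO at E17.5, and 5.12 and 5.40 against 5.33 and 4.93 at P1. The Efemp2 mean was 5.69 in WT and 5.27 in KO, a difference of -0.42 ± 0.11, and -0.43 ± 0.12 without the arrays of raised background. In Efemp2 KO 5 of 6 macrophage markers rose, with list differences in AA of 1.38 at E17.5 and 0.92 at P1 and in DA of 0.57 and 0.58. Of 6 endothelial markers 3 fell, with list differences of -0.39 and -0.93 in AA and -0.40 and -0.08 in DA. The part of these cells in the Rarb difference was not tested.

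In the Eln model Rarb was lower without overlap in 3 of 4 pairs (2.03% of tested genes in at least 3). Eln AA read 5.42 and 5.43 in WT and 5.19 and 5.00 in KO at E17.5, and 5.42 and 5.28 against 4.91 and 5.07 at P1. Eln DA read 5.26 and 5.37 in WT and 5.15 and 4.80 in KO at E17.5. The exception was Eln DA P1, where WT arrays of raised background read 4.96 and 5.37 and KO arrays 5.18 and 5.65, a difference of -0.02 ± 0.22 less the median. The Eln mean difference was -0.20 ± 0.11, and -0.34 ± 0.12 without those arrays.

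Lox showed the least: 1 of 4 pairs was free of overlap, DA at E17.5 with 4.41 and 4.86 in WT and 3.99 and 4.32 in KO. Its mean difference was -0.16 ± 0.11, and -0.07 less the median. Over all models KO was below WT without overlap in 6 of 12 pairs (5.57% of tested genes in at least 6), and in 4 of 6 AA pairs (4.71%). In WT, DA was below AA in 6 of 6 pairs as deposited (3.66% of tested genes), by -0.19 ± 0.09 in the mean, and in 5 of 6 less the median. The WT arrays were free of overlap in 3 of the 6 (11% of tested genes in at least 3).

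Across the 24 group means, after removal of array medians and of the mean of each model and stage, Crabp2 and Rarb had r = -0.54 (rho = -0.58), and Crabp1 and Aldh1a1 had r = 0.57 (rho = 0.57). The other 13 pairs of members lay between -0.32 and 0.36. These are descriptions over 24 means of 2 arrays that share models, locations and stages. What remains in the means is differences by genotype and location, which the choice of the genes also used. The genes most like Crabp2 by the same measure were Gna14, a G protein alpha subunit (r = 0.867, Eln KO difference 1.45 less the median), Aplp1, an amyloid precursor-like protein (r = 0.838), Mad2l2 (r = 0.812), Me1, cytosolic malic enzyme (r = 0.795), and Pcsk5, a proprotein convertase (r = 0.782). Rab6b (r = 0.819) was most like Crabp1, Lrrtm1 (r = 0.819) Aldh1a1, Tmem39b (r = 0.802) Aldh1a2, Rpgr (r = 0.864) Cyp26b1 and Tspyl3 (r = 0.832) Rarb.

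The stage difference was the one measure that the choice of genes did not use, but no label says whether the stages were processed together. Of all tested genes 77.4% differed between WT P1 and E17.5, with a median difference of 0.48. Stage therefore cannot be told apart from a possible difference in array processing. The median differences of single pairs were 1.54 (AA) and 1.70 (DA) in Lox, but -0.26 to 0.09 in Eln and Efemp2. Relative to the median of 0.48, 54.8% of tested genes and 3 of the 6 members passed, all 3 lower at P1. Crabp2 fell by 0.79 ± 0.14 at P1 (adjusted p = 1.49e-05, limma). Less the median difference of each pair, its P1 mean was below its E17.5 mean in 6 of 6 WT pairs, as for 10.4% of tested genes. As deposited, Crabp2 was higher at P1 in the Lox pairs of both locations. Relative to the median of 0.48, Crabp1 was also lower, at -1.01 ± 0.19 (adjusted p = 4.51e-05, limma). So was Rarb, at -0.22 ± 0.09 (adjusted p = 0.0396, limma). Less the median of each pair, Crabp1 was lower in 4 of 6 pairs and Rarb in 6 of 6. Aldh1a1, Aldh1a2 and Cyp26b1 did not pass, at 0.33 ± 0.20, -0.26 ± 0.13 and 0.19 ± 0.10. As deposited, Crabp2 was at -0.31 ± 0.14 and Crabp1 at -0.52 ± 0.19, and Rarb was higher at P1, by 0.26 ± 0.09. Aldh1a1 and Cyp26b1 were also higher as deposited, by 0.81 ± 0.20 and 0.68 ± 0.10 (adjusted p = 0.000486 and 6.41e-07, limma). As deposited 5 of the 6 members thus passed, and Aldh1a2, at 0.23 (adjusted p = 0.101, limma), did not. The Crabp2 call as deposited was lost in 13 of 33 alternatives with its direction kept, and its direction turned in 1. Among the 33 is the mean of all probe sets of a gene, which could not differ, since Crabp2 had 1 probe set. Crabp1 was at 0.07 ± 0.20 as deposited without the 4 arrays of raised background.

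Another 43 genes of the pathway were listed, 38 of them with their own probe set and 24 with enough signal to be tested, and few of them differed between KO and WT. In Eln KO 0 of 24 passed the threshold by limma (3.29% of all tested genes did), with 2 higher and 6 lower at an unadjusted p under 0.05. In Efemp2 KO 1 of 24 passed (3.81% of all tested genes): Aldh1a3, another retinaldehyde dehydrogenase, rose by 0.43 ± 0.12 (adjusted p = 0.0309), in 4 of 4 pairs. In Lox KO 0 of 24 passed (1.56%), with 0 higher and 4 lower at an unadjusted p under 0.05. The median difference of the 24 was 0.04 in Eln, 0.03 in Efemp2 and -0.16 in Lox, against 0.06, 0.04 and -0.09 over all tested genes.

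These counts moved with the processing. Less the median difference, Aldh1a3 no longer passed in Efemp2, and 3 genes did in Eln, all lower: Fabp5 (-0.36), a fatty acid binding protein that also carries retinoic acid, and the nuclear receptors Nr2f1 (-0.37) and Nr2f2 (-0.41), known retinoic acid targets. Adh1, an alcohol dehydrogenase that oxidises retinol, had -0.54 ± 0.18 in Eln, -0.33 ± 0.18 in Efemp2 and -0.65 ± 0.18 in Lox. Rbp7, an intracellular retinol binding protein, had -0.85 ± 0.28, -0.91 ± 0.28 and -0.77 ± 0.28. Neither passed in any model, and both passed in at least 1 alternative in each model. The brown fat markers had a median difference between KO and WT of -0.50 in Eln, -0.48 in Efemp2 and -0.65 in Lox, and 2, 0 and 1 of the 6 passed by limma, all lower (in Efemp2, 3 were lower at an unadjusted p under 0.05). At P1 their list differences in AA and DA were -1.59 and -0.34 in Eln, -0.71 and -1.42 in Efemp2, and -0.95 and -0.90 in Lox. At E17.5 they were -0.08 and -0.36 in Eln, -0.14 and 0.08 in Efemp2, and -0.22 and -0.22 in Lox. The arrays of Eln WT AA P1 had list means as far apart as 6.92 and 9.21. The part of fat in the Adh1 and Rbp7 values was not tested.

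The other nuclear receptors did not pass the test. Rara differed by 0.22 ± 0.11 in Eln, 0.12 ± 0.11 in Efemp2 and 0.01 ± 0.11 in Lox. Rarg differed by 0.01 ± 0.10, -0.08 ± 0.10 and -0.16 ± 0.10, Rxra by 0.16 ± 0.10, 0.11 ± 0.10 and -0.13 ± 0.10, and Rxrb by 0.06 ± 0.15, -0.16 ± 0.15 and -0.12 ± 0.15. All 4 stayed short of the threshold in each model (0 of 4 also at an unadjusted p under 0.05). Rxrg, Cyp26a1 and Cyp26c1 did not reach the signal needed for testing.

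**Figure D4:**
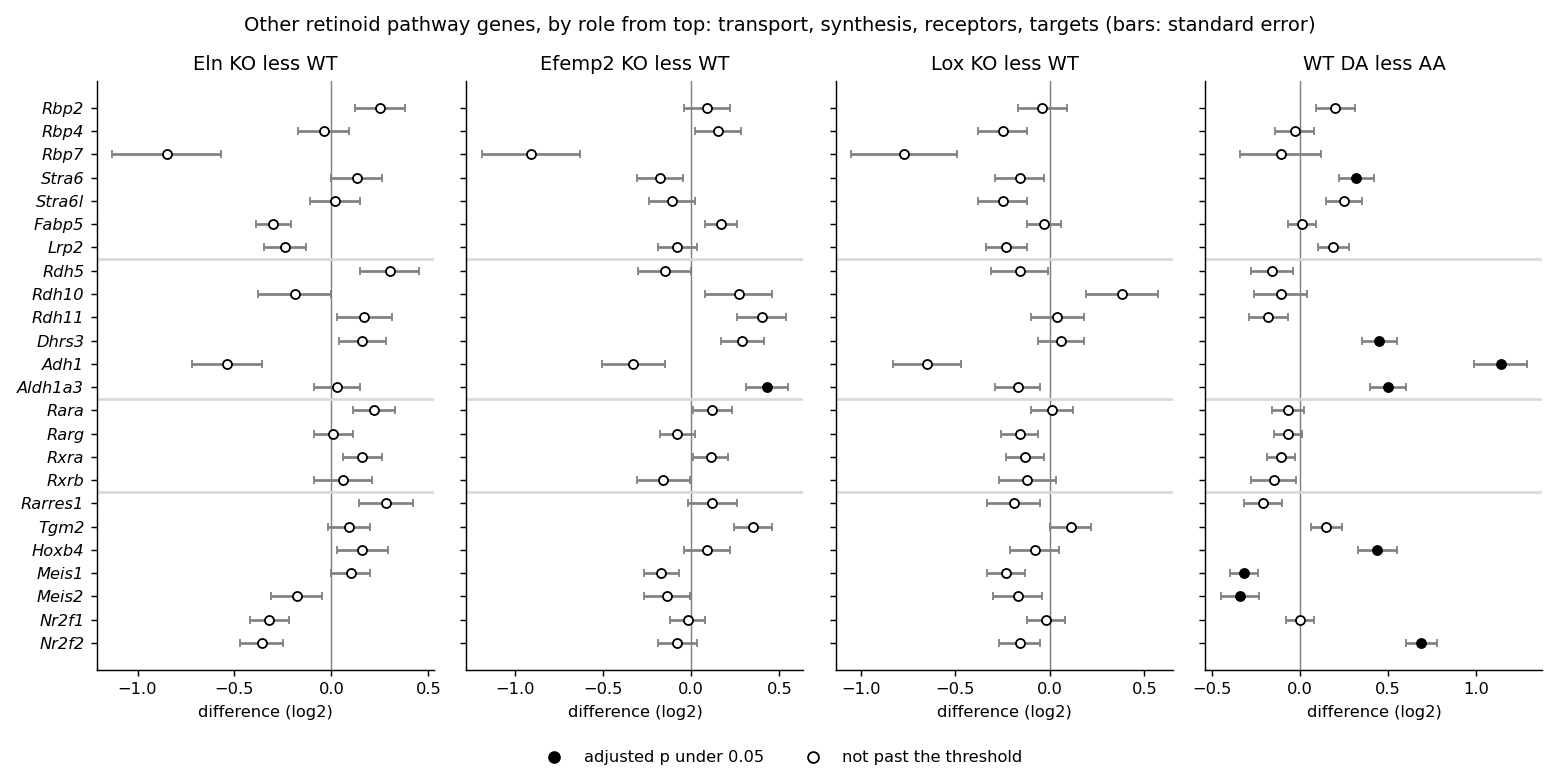
Differences (log2, with limma standard errors) of the 24 tested pathway genes other than the 6 members, for KO less WT averaged over the 4 pairs of each model and for DA less AA over the 6 WT pairs; filled points passed an adjusted p under 0.05. In the KO panels 1 point is filled, Aldh1a3 in Efemp2, and in the WT panel 8 are filled, with Adh1 at 1.14 the furthest from 0.

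The difference between the ends of the WT aorta was more frequent. Of the 24 genes 6 were higher and 2 lower in DA, where 8.59% of all tested genes passed (4.64% higher and 3.96% lower). Adh1 was higher by 1.14 ± 0.15 (7.40 against 6.27, adjusted p = 2.13e-06) and Nr2f2, also called COUP-TFII, by 0.69 ± 0.09 (7.00 against 6.31, adjusted p = 2.99e-06). Aldh1a3 was higher by 0.50 ± 0.10 and Dhrs3, which turns retinaldehyde back into retinol, by 0.45 ± 0.10 (adjusted p = 0.000653 and 0.00257). The homeobox gene Hoxb4 (0.44 ± 0.11) and the retinol binding protein receptor Stra6 (0.32 ± 0.10) were higher too, with adjusted p = 0.00782 and 0.0489. The homeobox genes Meis1 (-0.32 ± 0.08) and Meis2 (-0.34 ± 0.11) were lower in DA, in 6 of 6 pairs each (adjusted p = 0.0081 and 0.041). All p-values are from limma with Benjamini-Hochberg adjustment over the 15337 genes. By role, 3 of 6 synthesis and storage genes, 1 of 7 transport genes and 2 of 7 targets were higher, 2 of 7 targets were lower and 0 of 4 receptors passed (0 also at an unadjusted p under 0.05).

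Without the 4 arrays of raised background 5 of the 24 passed, all higher in DA, so the calls of Stra6, Meis1 and Meis2 were lost. Stra6 passed in 7 of 32 alternatives and Meis2 in 11 of 32, against 31 of 32 for Meis1, and Stra6 was also lost with the replicate block. Of the mesothelial and epicardial markers 3 of 7 fell in WT DA, among them Tcf21 by 2.01 ± 0.16 and Msln by 0.93 ± 0.13 (adjusted p = 1.2e-10 and 1.11e-05, limma). The median of the 7 was -0.35, and at an unadjusted p under 0.05 by limma 4 were lower and 1 was higher. The list mean of these markers differed by -1.27 to 0.32 over the 6 WT pairs, and its part in the differences of the pathway genes was not tested.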

How the data were processed

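RNA of pooled mouse aortas was amplified from 5 ng and hybridised to 48 Affymetrix arrays. The deposited values are log2 signals of probe sets, from RMA as run by the authors in Affymetrix Expression Console, per the submitters' processing notes; versions and genome build are not given in the sources used here. The deposited table held 41345 probe sets, 23521 with 1 gene symbol. A gene was tested when a group mean reached 4.94. Means of the 24 groups were estimated from all 48 arrays in limma 3.58.1 (R 4.3.3; eBayes; Benjamini-Hochberg, threshold 0.05), with a test of the code on simulated data. Errors are limma standard errors unless named SD.

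The members and lists were chosen with earlier results of these data known. Named were all 6 members, pathway genes past the threshold (up to 4 per direction, by size), tested receptors, and the genes most correlated with a member (5 for Crabp2, 3 computed for each other member, of which the first is named). Hoxb4, Stra6, Fabp5, Nr2f1, Rbp7 and the Adh1 values in KO were named after their values were seen. The alternatives were no filter, cyclic loess, only the arrays compared, trended robust variances, a replicate block, background as a covariate, no raised-background arrays, the mean of all probe sets of a gene, each array left out and, added after seeing the data, centring.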

Additional observations from a re-analysis of the deposited data

Results flagged for a closer look

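In 9 cases a pair of comparisons moved in opposite directions, with both arrays of a side on the same side in each; none of these differences was tested, and they were found among many such pairs. The share of all tested genes with such a pattern was not counted, so nothing is read from the number of cases. In a single pair, lack of overlap was common, with KO below WT for 54.6% of tested genes in Lox AA P1. All values are log2 differences as deposited. The median differences of the pairs, up to 0.27 in Eln DA P1, are not taken off.

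For Crabp1, KO less WT was -1.21 in Eln AA P1 and 1.63 in Eln DA P1, a gap of -2.85, where both WT DA arrays were of raised background. It was 0.48 in Eln DA E17.5 and -0.36 in Efemp2 DA E17.5, a gap of 0.84. It was -0.82 in Lox AA P1 and 0.21 in Lox DA P1, a gap of -1.03. In WT, DA less AA of Crabp1 was 0.84 in Eln E17.5 and -1.85 in Eln P1, a gap of 2.69, and the same raised-background arrays enter the latter.

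For Aldh1a2, KO less WT was -0.22 in Efemp2 AA P1, against 0.46 in Efemp2 DA P1 (a gap of -0.69) and 0.24 in Lox AA P1 (a gap of -0.46). In WT its DA less AA was 0.72 in Efemp2 E17.5 and -0.49 in Efemp2 P1, a gap of 1.21. For Aldh1a1 in WT, DA less AA was -0.57 in Eln P1 against 0.55 in Lox P1, a gap of -1.11. It was -0.43 in Efemp2 P1 against the same Lox value, a gap of -0.98. Both Eln WT DA P1 arrays were of raised background, and the Efemp2 P1 WT groups each held 1 such array.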

How the results depend on the processing

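Crabp2 in Eln KO differed by 1.38 to 1.62, and by 1.37 to 1.61 with 1 array left out, lowest without Eln WT AA P1 replicate 1. The direction of Crabp1 in Eln KO turned without the 4 arrays of raised background (0.20 to -0.27). Aldh1a2 in Eln KO (-0.27) ranged from -0.45 to -0.09 with 1 array left out.

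Counts over all genes (504 Eln, 584 Efemp2, 240 Lox, 1318 WT DA less AA, 11866 WT P1 less E17.5) became 218 in Eln, 373 in Efemp2 and 6457 for stage with background as a covariate. Without the 4 arrays they were 248 in Eln and 443 in Lox. With only the arrays compared they were 196 in Efemp2, 767 in Lox and 845 for DA less AA. For stage, no filter gave 18148 and cyclic loess 7812. Leaving out 1 array gave 331 to 872, 366 to 860, 127 to 301, 1010 to 2223 and 11518 to 11989. The highest Eln and Efemp2 counts came without Eln WT DA P1 replicate 2 and Efemp2 WT DA P1 replicate 1, and the lowest Lox count without Lox KO DA P1 replicate 1. The highest DA less AA count came without Efemp2 WT AA P1 replicate 2. Centring turned 421 higher and 83 lower into 254 and 115 in Eln, 482 and 102 into 347 and 150 in Efemp2, 86 and 154 into 139 and 61 in Lox, and 11182 and 684 into 4179 and 4230 for stage.

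Other pathway genes called in Eln (0) were 4 with cyclic loess, 1 with trended robust variances, 3 with the covariate, 2 without the 4 arrays and 3 after centring, all lower. In Efemp2 (1) they were 2 with cyclic loess, 0 with only the arrays compared and 0 after centring. In Lox (0) they were 2 with only the arrays compared, 1 with the covariate and 1 without the 4 arrays. For DA less AA (8) they were 5 without the 4 arrays, and for stage (19) 32 with no filter and 11 after centring. With 1 array left out they ranged from 0 to 2, 0 to 3, 0 to 1, 6 to 8 and 18 to 20. Members called by stage (5) were 1 with the covariate, 3 after centring and 4 to 5 with 1 array left out. Aldh1a3 kept its Efemp2 call in 12 of 24 alternatives. For stage, Aldh1a2 turned to -0.30 with cyclic loess and -0.26 after centring, and Rarb to -0.24 and -0.22. With the covariate Crabp1 turned to 0.69 and Crabp2 to 0.11, and Crabp1 turned to 0.07 without the 4 arrays. The cause of these changes was not tested.

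Whether the replicate numbers pair the arrays could not be settled with 2 arrays a group. The same-number correlation exceeded 0.1 in 3 of 12 KO pairs (-0.23 to 0.20). It did so in 2 of 6 WT location pairs (-0.15 to 0.29) and 1 of 6 stage pairs (-0.09 to 0.11). The 2 location pairs were Efemp2 at E17.5 (0.23) and at P1 (0.29). With the replicate block the counts were 486 in Eln, 528 in Efemp2, 182 in Lox, 1536 for DA less AA and 11770 for stage, with 1, 2, 0, 7 and 19 other pathway genes. Crabp2 in Eln KO was at 1.49 in both fits. With 2 arrays a group, precision is limited.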
